A study of Mus musculus with 6 samples.

Results

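The 32 genes described here are the glutathione S-transferases (GSTs) and UDP-glucuronosyltransferases (UGTs) that an array of mouse liver RNA could name singly. They were chosen by symbol alone, from the probe sets whose annotation gave 1 gene symbol. Every such probe set for an alpha, mu, pi, theta, kappa or omega class GST, a microsomal GST or a UGT was taken. This gave 33 probe sets for 21 GST and 11 UGT genes, out of 21789 probe sets for 19938 singly named genes and 35512 probe sets in all. Gstm3 had 2 probe sets and every other gene 1. All 32 genes passed the filter on low signal. A further 10 probe sets were annotated to several GST or UGT symbols, among them all that covered the Ugt1a genes and the alpha-class genes Gsta1 and Gsta2. They are not counted as members and are described apart. The one annotated to Ugt2a1 and Ugt2a2 read 16 to 18 on all arrays and was removed by the filter.

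The livers of 3 wild-type mice were compared with those of 3 mice that carried the Lmna G609G knock-in on both alleles. All 6 were C57BL/6 females aged 3 months and were starved for 6 h before death, and each array carried the total RNA of 1 liver. The G609G allele creates a cryptic splice site in the lamin A gene, which yields the truncated protein progerin found in Hutchinson-Gilford progeria, and the animals serve as a model of that premature ageing disease. The labels number the knock-in mice 1, 3 and 5 and the wild-type mice 2, 4 and 6, and intensities below are given in that order.

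GSTs attach glutathione to electrophilic compounds, which makes them more soluble and less reactive, and many of them are abundant in hepatocytes. UGTs sit in the membrane of the endoplasmic reticulum and attach a sugar, for most of them glucuronic acid drawn from UDP-glucuronate, to bilirubin, steroids, bile acids and drugs. Both families make up much of phase II metabolism in liver, and their products leave the cell through ATP-driven exporters. Receptors and factors such as CAR (Nr1i3), PXR (Nr1i2), AHR and NRF2 (Nfe2l2) are known to induce many of their genes.

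In knock-in liver most members of both families were lower. Of the 32 genes, 18 fell, 1 rose (Gstt3) and 13 did not pass the test, with a median log2 change of -0.64. The largest decreases belonged to Ugt3a1 (9.49-fold), Gstm3 at 1 of its probe sets (5.07-fold), Gstm6 (3.66-fold), Gstm4 (2.69-fold), Gstt2 (2.58-fold) and Ugt2b5 (2.43-fold). A gene counts as having changed where its adjusted p was below 0.05 in limma's moderated test on log2(intensity + 16), with Benjamini-Hochberg adjustment over 26634 probe sets. The whole array is the background for that count: 25.9% of probe sets passed, 14.9% as higher and 10.9% as lower in the knock-in livers. Bright probe sets passed more often, and most members were bright. Of the 8878 probe sets at or above the 75th percentile of mean signal 40% passed, and 25 members lay in that range, of which 18 passed. The intensities of the genotypes did not overlap for 24 of the 32 genes, against 41.1% of all probe sets tested. The singly named genes tested, 16157 in number, had a median log2 change of 0.00. These counts describe bulk RNA, in which fewer cells of a type and less RNA per cell cannot be told apart.

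**Figure D1:**
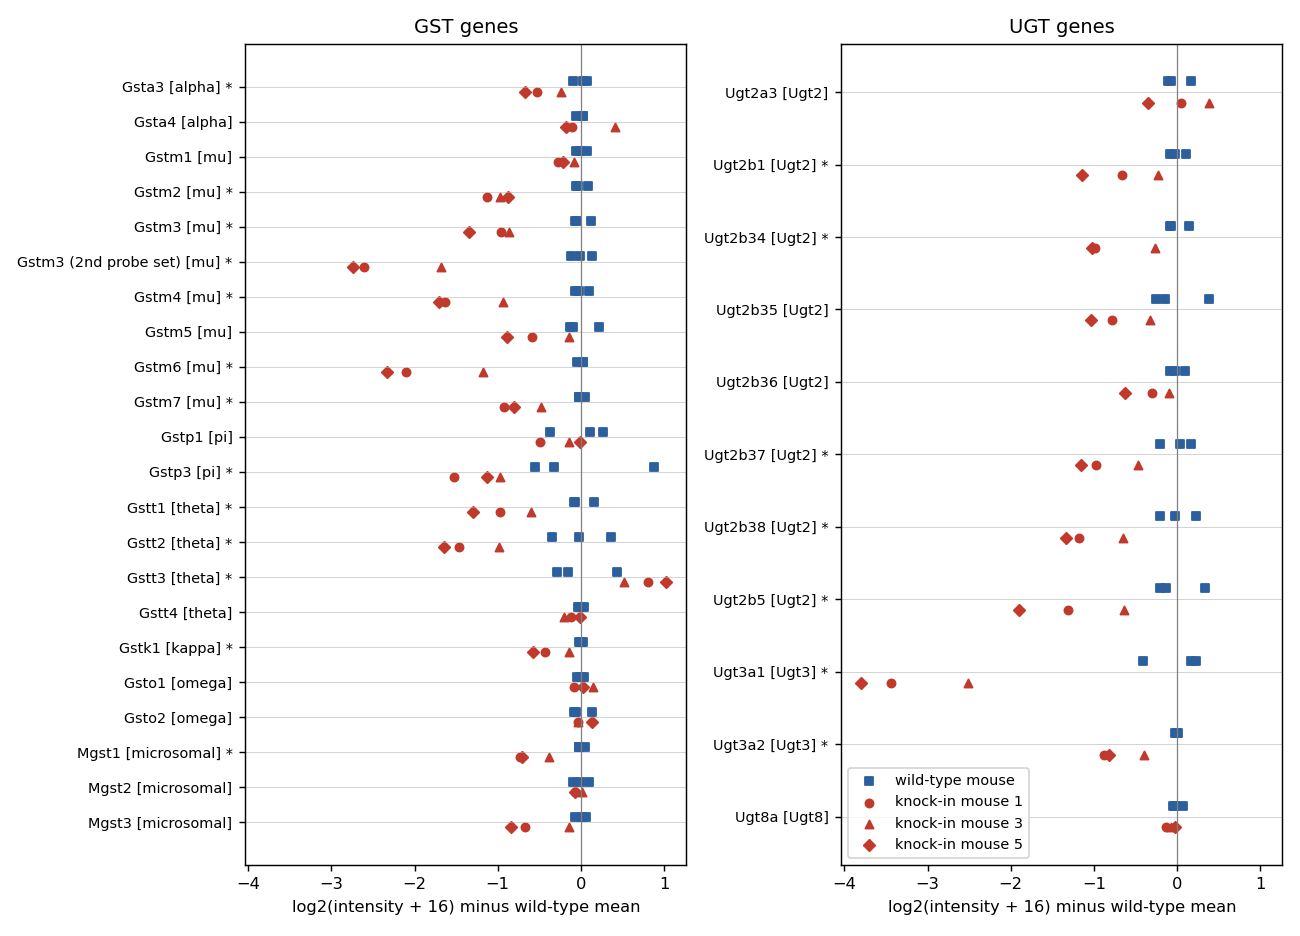
Each member on each array, as log2(intensity + 16) minus the wild-type mean, with squares for the 3 wild-type mice and circles, triangles and diamonds for knock-in mice 1, 3 and 5; the class stands in brackets and * marks genes that passed the test. In the knock-in livers 18 genes lay lower and Gstt3 higher, and the triangle of knock-in mouse 3 lay nearest to the wild-type mice for 18 of the 19 genes that passed.

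The array medians lay between 97.0 and 104 intensity units. How the values were normalized is not known, so these medians cannot show whether an array was dim before processing. Knock-in mouse 3 stood closer to the wild-type mice than the other knock-in mice did. For the 19 genes that passed, it was the nearest of the 3 knock-in mice to the wild-type mean in 18, and knock-in mouse 5 in 1. Its median log2 difference from the wild-type mean over the GST genes that passed was -0.73, against -0.97 in mouse 1 and -1.003 in mouse 5. Over the UGT genes it was -0.47, against -0.99 and -1.16. Without mouse 3, 14 GST and 9 UGT genes were lower in the fit over all probe sets. Without mouse 1 these counts were 8 and 3, and Gstt3 no longer passed. Hepatocyte markers as a list did not shift down: 3 of 19 tested rose and 2 fell, with a median log2 change of -0.03, and their summed intensity was 220071 to 239842 in knock-in and 222909 to 227929 in wild-type livers. The 2 that fell were Asgr1 and Apoa2, named after their values were seen, and neither passed without any 1 mouse other than knock-in mouse 3. Of the lists of other cells, 2 of 14 Kupffer cell markers fell (14.3%, median -0.40), near the 10.9% of all probe sets that were lower. Of 13 endothelial markers 5 fell (median -0.33). The medians of the remaining lists were 0.08 (cholangiocyte), 0.21 (neutrophil), 0.02 (erythroid), -0.17 (stellate) and -0.12 (lymphocyte). By limma's adjusted p, 0 Kupffer cell markers fell without knock-in mouse 1 (5 at an unadjusted p below 0.05) or wild-type mouse 2 (3), and 0 endothelial markers without wild-type mouse 6 (5). Of 18 genes known from hepatocytes around the central vein, where many GSTs and UGTs are abundant, 10 fell (median -0.72). The part of any such shifts in the members' results was not tested.

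**Figure D2:**
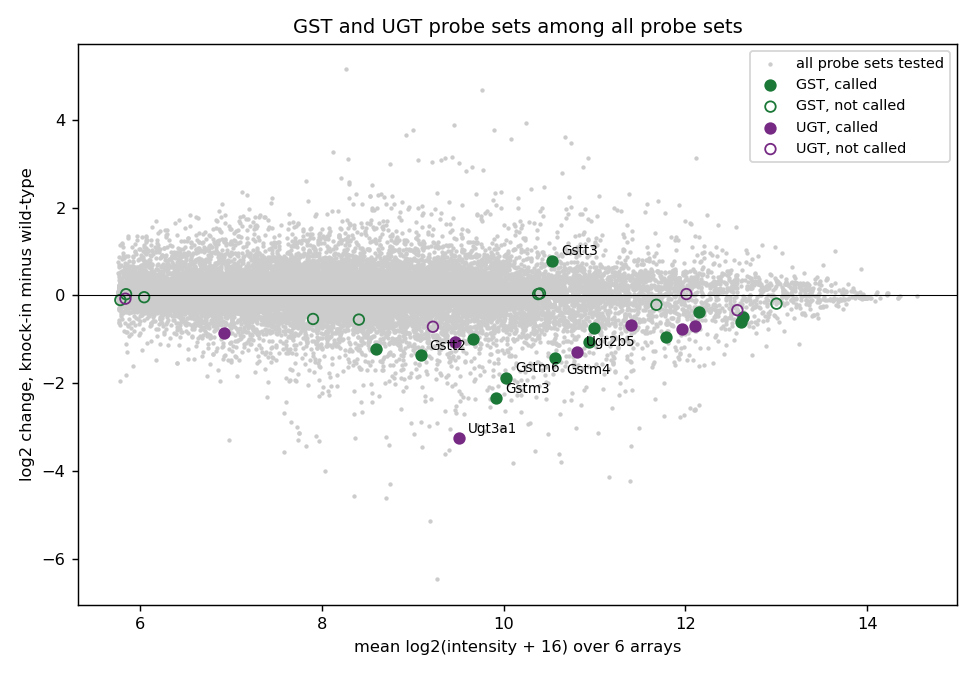
Log2 change (knock-in minus wild-type) against mean log2(intensity + 16) over the 6 arrays for all 26634 probe sets tested (grey), with the 33 GST (green) and UGT (purple) probe sets on top and filled where they passed. Most filled points lie below 0 and right of the middle of the signal range, with Ugt3a1 lowest at -3.25 and Gstt3 the filled point above 0.

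The mu class held 5 of the 11 GST genes that fell. Its 7 genes lie close together on chromosome 3 in the order Gstm5, Gstm7, Gstm6, Gstm3, Gstm2, Gstm1 and Gstm4, and encode cytosolic enzymes that act on epoxides and other electrophiles. Gstm2, Gstm3, Gstm4, Gstm6 and Gstm7 fell, Gstm1 and Gstm5 did not pass, and the class median was -0.99. None of the 5 calls was lost under any of 18 alternative settings, which included leaving out each mouse. These genes are close in sequence, so signal from one transcript can reach the probe set of another.

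Gstm6 had the largest change among the mu-class probe sets that stand for a gene. Its intensities were 450, 867 and 381 in knock-in mice 1, 3 and 5 and 2019, 1922 and 2016 in wild-type mice 2, 4 and 6. The groups lay far apart, with mouse 3 the highest of the knock-in values, and the log2 change was -1.87 ± 0.27 (SE; limma adjusted p = 0.0031). Gstm4 intensities were 788, 1285 and 752 against 2652, 2362 and 2441. No knock-in value came near the wild-type range, and the log2 change was -1.43 ± 0.20 (limma adjusted p = 0.00265).

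Both probe sets of Gstm3 fell, by different amounts. The brighter read 1437, 1542 and 1097 in knock-in and 2686, 3060 and 2715 in wild-type mice, a log2 change of -1.06 ± 0.14 (limma adjusted p = 0.00222). The other read 341, 662 and 309 against 2367, 1989 and 2134, a log2 change of -2.34 ± 0.26 (limma adjusted p = 0.0013). Neither overlapped between genotypes. The brighter probe set stands for the gene in the counts, so the 5.07-fold decrease of the other does not enter the class median.

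Gstm2 intensity averaged 560.3 ± 51.7 (SD, n = 3) in knock-in mice, the lowest being 506 in mouse 1, and was 1197, 1103 and 1084 in wild-type mice, a log2 change of -0.99 ± 0.11 (limma adjusted p = 0.00111). Here the knock-in mice lay close together and mouse 3 was not the one nearest to wild type. Gstm7 intensities were 1371, 1873 and 1485 against 2576, 2690 and 2558, a log2 change of -0.73 ± 0.12 (limma adjusted p = 0.00553), again without overlap.

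Gstm1, the brightest mu-class probe set, moved little. It read 7190, 8275 and 7555 in knock-in and 8381, 9179 and 8662 in wild-type mice, a log2 change of -0.19 ± 0.08 (limma adjusted p = 0.112). The lowest wild-type value was just above the highest knock-in value. Gstm5 read 177, 246 and 140 against 321, 248 and 255, with knock-in mouse 3 almost level with wild-type mouse 4 (log2 change -0.54 ± 0.20, limma adjusted p = 0.0838). Without knock-in mouse 3 both passed, Gstm1 at a log2 change of -0.24 (limma adjusted p = 0.0425) and Gstm5 at -0.74 (limma adjusted p = 0.0122). Over all alternatives the adjusted p ranged from 0.0414 to 0.293 for Gstm1 and from 0.0122 to 0.231 for Gstm5.

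**Figure D3:**
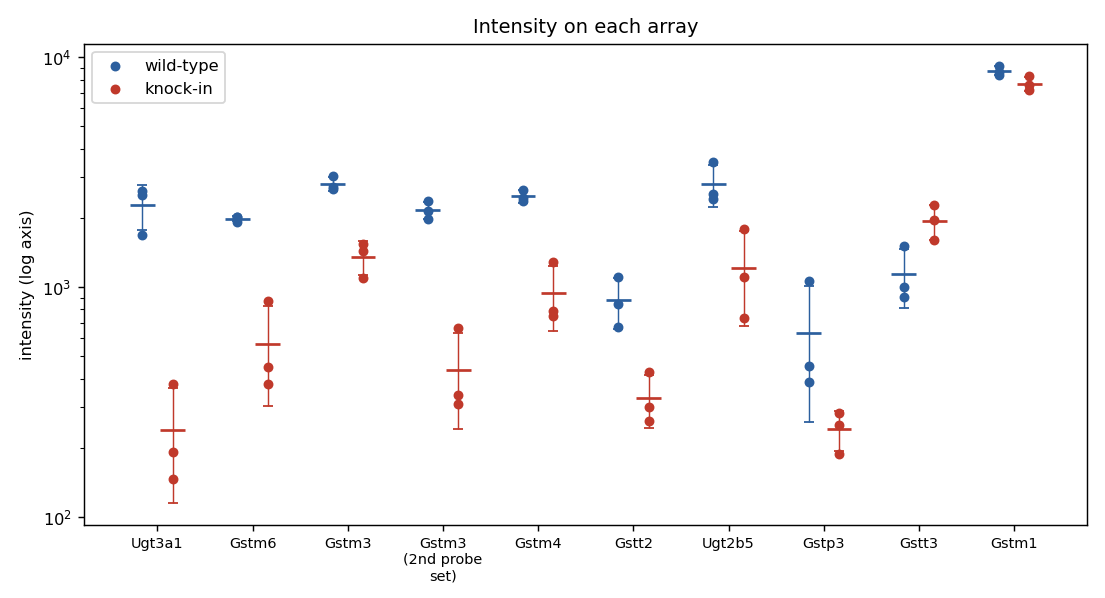
Intensity on a log axis for 10 member probe sets, 1 point per mouse, with the mean (wide bar) and SD (thin bar) of 3 wild-type (blue) and 3 knock-in (red) livers. Ugt3a1, Gstm6, both Gstm3 probe sets, Gstm4, Gstt2, Ugt2b5 and Gstp3 were lower and Gstt3 higher in knock-in livers, while Gstm1 differed little.

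The theta class, which handles small halogenated and sulphate-bearing substrates, moved in both directions. Gstt1 and Gstt2 fell, Gstt3 rose and Gstt4 did not pass, although the 4 genes are neighbours on chromosome 10. Gstt1, the brightest of them, read 2487, 3245 and 1988 in knock-in and 4632, 5469 and 4661 in wild-type mice, a log2 change of -0.96 ± 0.17 (limma adjusted p = 0.00708). Gstt2 read 300, 427 and 262 against 1111, 673 and 843, a log2 change of -1.37 ± 0.23 (limma adjusted p = 0.00498). Neither gene overlapped between genotypes, and both kept their calls under all 18 alternatives.

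Gstt3 was the single member that rose. It read 1951, 1603 and 2281 in knock-in and 905, 1512 and 999 in wild-type mice, a 1.72-fold increase (log2 change 0.79 ± 0.21, limma adjusted p = 0.0306). The margin was narrow, since the lowest knock-in value (mouse 3) was just above the highest wild-type value (mouse 4). The call was lost without knock-in mouse 1 or 5 or wild-type mouse 2 or 6, with log2 changes between 0.64 and 0.78. Over all alternatives its adjusted p ran from 0.00713 to 0.0972. Gstt4 was dim, at 34 to 43 intensity units.

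Of the alpha class, which acts on products of lipid peroxidation, Gsta3 fell and Gsta4 did not pass. Gsta3, an enzyme known for conjugating aflatoxin epoxide in mice, read 5195, 6318 and 4683 in knock-in and 7871, 7600 and 7006 in wild-type mice. The groups did not overlap, and the decrease was 1.40-fold (log2 change -0.48 ± 0.12, limma adjusted p = 0.0208). Its call was lost without knock-in mouse 1 or 5 or wild-type mouse 2 or 4, and its adjusted p ran from 0.00287 to 0.0748 over all alternatives. Gsta4, which conjugates 4-hydroxynonenal, read 1221, 1749 and 1162 against 1339, 1341 and 1261, so that the wild-type values lay inside the knock-in range. Its log2 change of 0.04 had a 95% interval of -0.32 to 0.41 (limma adjusted p = 0.881).

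The other alpha-class signal went the opposite way to Gsta3. The 4 probe sets annotated jointly to Gsta1, Gsta2 and a pair of predicted genes were all higher in knock-in livers, with log2 changes from 0.70 to 0.90 and limma adjusted p from 0.0238 to 0.0388. The brightest of them read 1144, 1758 and 891 in knock-in and 602, 611 and 724 in wild-type mice. The genotypes did not overlap, and here knock-in mouse 3 was the farthest from wild type rather than the nearest. These 4 probe sets share their targets and are not independent measurements, and each lost its call without knock-in mouse 1 or wild-type mouse 2 or 4 (limma adjusted p between 0.0679 and 0.119). The dimmer pair also lost theirs without wild-type mouse 6 (limma adjusted p = 0.0674 and 0.0623) and with no filter (0.0617 and 0.0567), and 1 of them with arrays centred on their medians (0.0552).

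In the pi class, Gstp3 fell and Gstp1 did not pass. Gstp3 read 189, 283 and 252 in knock-in and 385, 1065 and 454 in wild-type mice, a 2.32-fold decrease (log2 change -1.21 ± 0.35, limma adjusted p = 0.042). Wild-type mouse 4 was far above the other wild-type mice, and without it the log2 change was -0.77 (limma adjusted p = 0.0333). The call was lost without knock-in mouse 1 or 5 or wild-type mouse 6, and the adjusted p ran from 0.0287 to 0.138 over all alternatives. Gstp1, a major cytosolic GST of mouse liver, read 2512, 3199 and 3495 against 3804, 4255 and 2717, with overlapping groups (log2 change -0.21 ± 0.19, limma adjusted p = 0.468). Both probe sets annotated jointly to Gstp1 and Gstp2 also failed to pass, with log2 changes of -0.10 and -0.13 (limma adjusted p = 0.699 and 0.639).

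The remaining soluble enzymes were Gstk1, Gsto1 and Gsto2. Gstk1, the kappa-class enzyme of mitochondria and peroxisomes, read 3823, 4674 and 3480 in knock-in and 5270, 5172 and 5101 in wild-type mice. It fell without overlap, by -0.39 ± 0.11 in log2 units (limma adjusted p = 0.0411). Leaving out any mouse other than knock-in mouse 3 ended that call, and the adjusted p ran from 0.0039 to 0.127. Gsto1, an omega-class enzyme with thiol transferase activity, read 1230, 1445 and 1323 against 1311, 1266 and 1336, so that the groups overlapped. Its log2 change was 0.03, with a 95% interval of -0.19 to 0.25 (limma adjusted p = 0.873). Gsto2 was dim, at 38 to 47.

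Among the microsomal GSTs, which are embedded in membranes and belong to another protein superfamily, Mgst1 fell and Mgst2 and Mgst3 did not pass. Mgst1, an abundant enzyme of the endoplasmic reticulum and outer mitochondrial membrane that also reduces lipid peroxides, read 4621, 5906 and 4724 in knock-in and 7959, 7557 and 7581 in wild-type mice. The groups were well separated, at a log2 change of -0.61 ± 0.10 (limma adjusted p = 0.00561), and the call held under all 18 alternatives. Mgst3 read 243, 358 and 213 against 400, 375 and 413, with knock-in mouse 3 close below the wild-type range (log2 change -0.55 ± 0.18, limma adjusted p = 0.0583). Without that mouse it passed, at a log2 change of -0.76 (limma adjusted p = 0.00293), and over all alternatives its adjusted p ran from 0.00293 to 0.169. Mgst2 was dim, at 47 to 56.

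The bases upstream of the members' transcription starts were searched for motif cores bound by NRF2, AHR, HNF1 and nuclear receptors, because several GST genes are textbook targets of NRF2. CAR and PXR elements were not searched. The windows were the 250 bases before each start in RefSeq (GRCm38.p6). All 32 genes matched RefSeq by gene identifier, 29 of them had 37 windows between them, and Gsta4, Gstt2 and Ugt3a2 had none. The core of the antioxidant response element, TGACNNNGC on either strand, stood in 4 of the 37 windows (10.8%), against 10.2% of 32851 windows of all genes. These 4 belong to Gsta3, Gstm5, Gstm7 and Mgst1, of which all but Gstm5 fell. They are shown with the motif in capitals and 60 bases in all, since they are the members in which this motif was found, and each runs 5′ to 3′ along the gene's strand. Mgst1 holds the motif on the opposite strand.
Gsta3, chr1:21240439-21240498, plus strand: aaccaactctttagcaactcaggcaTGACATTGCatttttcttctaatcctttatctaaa
Gstm5, chr3:107895787-107895846, plus strand: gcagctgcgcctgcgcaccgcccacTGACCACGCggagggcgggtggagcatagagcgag
Gstm7, chr3:107931709-107931768, minus strand: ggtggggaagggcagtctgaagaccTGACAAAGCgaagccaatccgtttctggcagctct
Mgst1, chr6:138140446-138140505, plus strand: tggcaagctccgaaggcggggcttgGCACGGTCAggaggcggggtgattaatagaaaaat
The first bases of these matches lie at -121, -42, -129 and -56 from the start that follows each window. Gstm7 and Mgst1 have 2 windows each, and only 1 of them held the motif. The Gstm7 match lies downstream of that gene's other start. The other motifs were counted in the same way. The core of the AHR-bound element, GCGTG, stood in 18.9% of member windows (Gstm1, Gstm5, Gstp1, Gstp3, Mgst3 and Ugt8a) against 28.2% of all windows. The HNF1 half-site GTTAAT stood in 8.1% (Gsta3, Ugt2a3 and Ugt3a1) against 6.4%. The letters TGACCTTTG, a part of a direct repeat bound by nuclear receptors and not a whole repeat, stood in no member window. They stood in 0.4% of all windows. A match is a stretch of letters, not a measured binding site.

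Among the UGTs, both Ugt3a genes fell, 5 of 8 Ugt2 genes fell, and Ugt8a did not pass. The UGT median log2 change was -0.71, and no UGT gene rose.

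Ugt3a1 fell more than any other member. UGT3 enzymes use sugars other than glucuronic acid, and Ugt3a1 is known to transfer N-acetylglucosamine to bile acids and steroids. Its intensities were 192, 380 and 146 in knock-in and 2624, 1688 and 2521 in wild-type mice. Even the highest knock-in value (mouse 3) was far below the lowest wild-type value (mouse 4). The log2 change was -3.25 ± 0.33 (limma adjusted p = 0.000976), and between -3.62 and -2.97 over the 18 alternatives, all of which kept the call.

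Ugt3a2 read 3035, 4262 and 3187 in knock-in and 5534, 5629 and 5666 in wild-type mice, a 1.62-fold decrease (log2 change -0.70 ± 0.13, limma adjusted p = 0.00776). The wild-type mice lay close together and above every knock-in mouse. A pair of probe sets annotated jointly to Ugt3a1 and Ugt3a2 fell by amounts between those of the genes, with log2 changes of -1.10 and -1.18 (limma adjusted p = 0.00266 and 0.00344).

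The Ugt2 genes form a cluster on chromosome 5 and encode the enzymes that glucuronidate steroids, bile acids and many drugs. They are paralogs of high similarity, so some cross-signal between their probe sets is possible. Ugt2b1, Ugt2b34, Ugt2b37, Ugt2b38 and Ugt2b5 fell, Ugt2a3, Ugt2b35 and Ugt2b36 did not pass, and the class median was -0.74. The count of 5 depended on single mice. It was 1 without knock-in mouse 1, 2 without wild-type mouse 2, 3 without knock-in mouse 5 or wild-type mouse 4 or 6, and 7 without knock-in mouse 3.

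Ugt2b5 changed most in this class. It read 1112, 1790 and 733 in knock-in and 3505, 2414 and 2539 in wild-type mice, a log2 change of -1.28 ± 0.30 (limma adjusted p = 0.02). The knock-in mice were spread widely, and mouse 3 lay closest to the wild-type range. The call was lost without knock-in mouse 1 or wild-type mouse 2, and its adjusted p ran from 0.00248 to 0.0688. Ugt2b38 read 435, 632 and 388 against 1178, 867 and 981, a 2.07-fold decrease (log2 change -1.05 ± 0.20, limma adjusted p = 0.00787). It was the one Ugt2 gene whose call held under all 18 alternatives.

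Ugt2b37 was a dim member at 68, 103 and 58 in knock-in and 153, 127 and 170 in wild-type mice. It fell without overlap, by -0.87 ± 0.18 in log2 units (limma adjusted p = 0.0128), and lost its call without knock-in mouse 1, with an adjusted p from 0.0018 to 0.0527 over all alternatives. Ugt2b34 read 2599, 4305 and 2536 against 5708, 4899 and 4939 (log2 change -0.76 ± 0.20, limma adjusted p = 0.0287). Knock-in mouse 3 lay well above its group, and leaving out any other mouse ended the call, with an adjusted p from 0.000667 to 0.103 over all alternatives.

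Ugt2b1 stood at the threshold. It read 2144, 2902 and 1536 in knock-in and 3678, 3221 and 3341 in wild-type mice, a log2 change of -0.68 ± 0.21 (limma adjusted p = 0.04996). The groups did not overlap, but 10 of the 18 alternatives ended its call, and without knock-in mouse 5 the log2 change was -0.45. Over all alternatives the adjusted p ran from 0.00496 to 0.141.

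The 3 Ugt2 genes that did not pass differed in size. Ugt2b36, the brightest Ugt2 probe set, read 5558, 6407 and 4421 in knock-in and 7316, 6732 and 6454 in wild-type mice (log2 change -0.34 ± 0.13, limma adjusted p = 0.109). Ugt2b35 read 431, 594 and 357 against 986, 679 and 629 (log2 change -0.71 ± 0.22, limma adjusted p = 0.0536). For both, each knock-in value lay below each wild-type value. Without knock-in mouse 3 both passed, at log2 changes of -0.46 and -0.91 (limma adjusted p = 0.0232 and 0.0158), and over all alternatives the adjusted p reached 0.271 and 0.15. Ugt2a3 read 4188, 5316 and 3197 against 4581, 3775 and 3868, so that the wild-type mice lay within the knock-in range. Its log2 change of 0.03 had a 95% interval of -0.39 to 0.45 (limma adjusted p = 0.933).

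The sequence just upstream of the start set 3 of the Ugt2b genes apart from the others. Ugt2b5, Ugt2b37 and Ugt2b38, all of which fell, shared an identical run of 62 bases, which begins at -68, -85 and -71 from their starts. This comparison was chosen after the sequences were seen. The run stood in these 3 of the 32851 upstream windows in RefSeq (GRCm38.p6). Ugt2b36, which did not pass, held 22 bases of it from -31. Ugt2b34 and Ugt2b1, which fell, shared at most 7 and 8 bases in a row with it, and Ugt2b35 and Ugt2a3, which did not pass, at most 6 and 7. The last 120 bases before the start are given for these genes, 5′ to 3′ along the gene's strand, with the shared run of 20 bases or more in capitals.
Ugt2b5, chr5:87140341-87140460, minus strand: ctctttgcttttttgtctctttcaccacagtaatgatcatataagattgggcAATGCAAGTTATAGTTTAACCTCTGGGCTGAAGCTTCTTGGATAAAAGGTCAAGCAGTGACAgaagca
Ugt2b37, chr5:87254789-87254908, minus strand: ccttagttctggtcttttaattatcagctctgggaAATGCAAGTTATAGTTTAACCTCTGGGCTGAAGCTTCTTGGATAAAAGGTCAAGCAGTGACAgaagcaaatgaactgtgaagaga
Ugt2b38, chr5:87424204-87424323, minus strand: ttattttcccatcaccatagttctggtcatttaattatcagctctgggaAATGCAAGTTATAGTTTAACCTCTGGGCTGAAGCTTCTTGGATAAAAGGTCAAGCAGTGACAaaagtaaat
Ugt2b36, chr5:87092556-87092675, minus strand: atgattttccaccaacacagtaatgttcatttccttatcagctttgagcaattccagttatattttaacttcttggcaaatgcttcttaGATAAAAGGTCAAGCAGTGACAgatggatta
Ugt2b34, chr5:86906938-86907057, minus strand: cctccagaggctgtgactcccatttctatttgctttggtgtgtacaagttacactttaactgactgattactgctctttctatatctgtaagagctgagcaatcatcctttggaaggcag
Ugt2b1, chr5:86926504-86926623, minus strand: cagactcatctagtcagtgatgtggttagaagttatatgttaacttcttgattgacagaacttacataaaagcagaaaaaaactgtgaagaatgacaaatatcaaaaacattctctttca
Ugt2b35, chr5:87000740-87000859, plus strand: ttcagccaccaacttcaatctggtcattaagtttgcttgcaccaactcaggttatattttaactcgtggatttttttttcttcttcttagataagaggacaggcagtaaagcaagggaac
Ugt2a3, chr5:87337196-87337315, minus strand: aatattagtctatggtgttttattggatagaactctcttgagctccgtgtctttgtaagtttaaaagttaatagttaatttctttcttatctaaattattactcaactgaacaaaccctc
The log2 changes of the 3 genes with the whole run were -1.28, -0.87 and -1.05, that of Ugt2b36 with part of it was -0.34, and those of Ugt2b34, Ugt2b1, Ugt2b35 and Ugt2a3 were -0.76, -0.68, -0.71 and 0.03. A decrease was thus seen with and without the run.

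Ugt8a, the enzyme that makes galactosylceramide for myelin, was dim, at 38 to 46. The Ugt1a enzymes, which include the one that glucuronidates bilirubin, share their last exons, and a single probe set annotated to 8 Ugt1a symbols covered them together. It read 2905, 3620 and 2766 in knock-in and 4133, 4573 and 4610 in wild-type mice. The groups did not overlap, with knock-in mouse 3 again the highest of its group, and the log2 change was -0.53 ± 0.12 (limma adjusted p = 0.015). The call was lost without knock-in mouse 1 or wild-type mouse 6 (limma adjusted p = 0.0615 and 0.0563).

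Genes of glutathione and UDP-glucuronate metabolism were counted beside the enzymes. Of 17 glutathione genes tested, 6 fell, 1 rose and 10 did not pass, with a median log2 change of -0.18. The count of 6 was 2 without knock-in mouse 1 and 3 without knock-in mouse 5 or wild-type mouse 2 or 6. Of the genes that make or reduce glutathione, Gclm fell by 0.71 on the log2 scale (limma adjusted p = 0.0241). Gclc, Gss and Gsr did not pass, and these genes were named after their values were seen. Glo1 and Hagh, the glyoxalases that use glutathione to clear methylglyoxal, fell by 1.38 and 0.75 on the log2 scale (limma adjusted p = 0.0082 and 0.00972). Both enzymes that degrade glutathione in the cytosol passed, in opposite directions: Chac1 rose by 1.27 (limma adjusted p = 0.00315) and Chac2 fell by 2.02 (limma adjusted p = 0.0117; 0.0505 without knock-in mouse 1).

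Of 13 genes for UDP-glucuronate supply, its transport and glucuronide cleavage, 7 fell, 1 rose and 5 did not pass, with a median of -0.45. The count of 7 was 3 without knock-in mouse 1 or wild-type mouse 2 and 4 without wild-type mouse 4 or 6. Ces3a fell most, by 3.03 on the log2 scale (limma adjusted p = 0.000608), but it encodes a carboxylesterase and not an enzyme of glucuronate supply. Without it 6 of 12 fell, with a median of -0.42. Slc35d2, a nucleotide sugar transporter, fell by 1.59 (limma adjusted p = 0.000818). Ugp2, which makes UDP-glucose, fell by 0.56 (limma adjusted p = 0.00474). The gene that rose was Pgm2, a phosphoglucomutase, named after its values were seen.

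**Figure D4:**
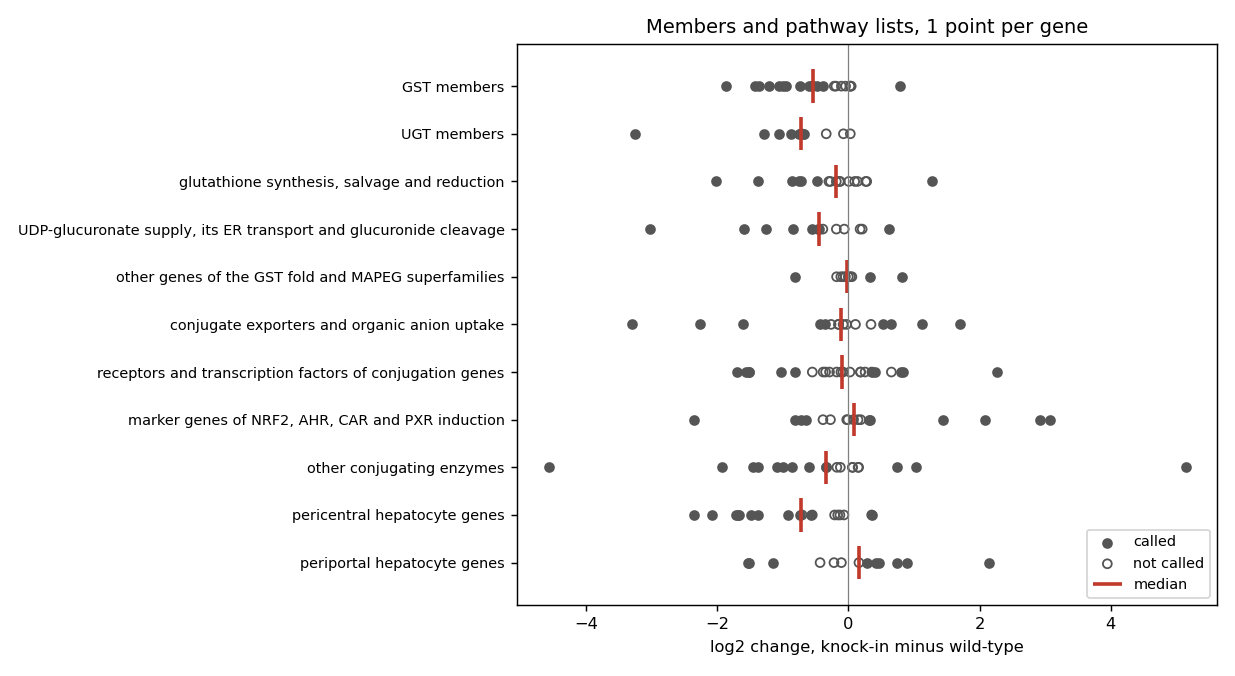
Log2 change (knock-in minus wild-type) of each tested gene of the GST and UGT members and of 9 related lists, filled where the gene passed the test, with the red bar at the list's median. The medians lie at -0.54 for the GST genes, -0.71 for the UGT genes and -0.72 for the pericentral genes, while the periportal list has a median of 0.16.

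The other genes of the GST fold and of the microsomal superfamily centred on 0, with 2 of 10 higher, 1 lower and a median of -0.02. Gstz1, the zeta-class enzyme of tyrosine breakdown, fell by 0.82 on the log2 scale (limma adjusted p = 0.0132). Clic4, a chloride channel protein with a GST fold, rose by 0.82 (limma adjusted p = 0.00115). The other higher gene, Alox5ap, rose by 0.34 (limma adjusted p = 0.0296), and lost its call without any 1 mouse other than knock-in mouse 3 (limma adjusted p of up to 0.106).

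Transporters of conjugates and organic anions moved both ways. Of 16 tested, 4 rose, 5 fell and 7 did not pass, and 3 fell without knock-in mouse 1 or any 1 wild-type mouse. The median was -0.11, and -0.17 without knock-in mouse 3, -0.06 without knock-in mouse 1 or wild-type mouse 2. Uptake carriers differed: Slco1a4 rose by 1.13 (limma adjusted p = 0.000818), while Slc22a7 fell by 2.26 (limma adjusted p = 0.000755). Slco1a1 fell by 3.30 (limma adjusted p = 0.00834), with wild-type intensities as uneven as 925 ± 927 (SD, n = 3). Without wild-type mouse 2 its log2 change was -2.52 and without wild-type mouse 4 it was -3.94, and with a pseudocount of 64, which weighs on its dim knock-in signal, it was -2.66. The exporter Abcb1b rose by 0.53 (limma adjusted p = 0.00273). The others that passed, named after their values were seen, were the conjugate exporter gene Abcc4 and Abcc9, a potassium channel regulator (higher), and Abcc6, the bile salt exporter gene Abcb11 and the uptake carrier gene Slco1b2 (lower).

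Among 24 receptors and transcription factors of conjugation genes, 5 rose, 6 fell and 13 did not pass, with a median of -0.10. That median was -0.07 without wild-type mouse 2, -0.06 without wild-type mouse 6 and -0.17 without wild-type mouse 4, and 3 genes were higher without knock-in mouse 1 or 5 or wild-type mouse 2. Nr1i3, which encodes CAR, fell from 3982 ± 173 to 1378 ± 106 (SD, n = 3 each; log2 change -1.52, limma adjusted p = 0.000174). Nfe2l2, which encodes NRF2, fell from 1860 ± 180 to 567 ± 93.0 (log2 change -1.69, limma adjusted p = 0.000492). Maff, a small partner protein of NRF2, rose from 154 ± 22.7 to 808 ± 160 (log2 change 2.27, limma adjusted p = 0.000327). The other genes that rose, named after their values were seen, were Mafk, Bach1, Arnt and Hnf4a, and the others that fell were Ppara (log2 change -1.56), Nr1h4 (-1.51), Cebpa (-1.02) and Foxa1 (-0.81).

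Marker genes of induction by these factors did not share a direction. Of 17 tested, 6 rose, 4 fell and 7 did not pass. The CAR target Cyp2b10 rose from a mean of 1541 to one of 6316 (log2 change 2.08 ± 0.25, limma adjusted p = 0.00167), although Nr1i3 fell. Of the AHR targets that passed, Tiparp rose by 2.93 (limma adjusted p = 3.86e-05) and Cyp1a2 fell by 2.36 (limma adjusted p = 0.00618). The other AHR targets listed, Cyp1a1 and Cyp1b1, were dim and did not pass (limma adjusted p = 0.63 and 0.32). Gadd45b, which CAR activators induce, rose by 3.07 (limma adjusted p = 0.000701). Named after their values were seen, the other genes that rose were the NRF2 marker Hmox1 (log2 change 1.44), Cyp3a11 (0.33) and Cyp3a25 (0.32). The others that fell were Cyp2b9 (-0.81), Alas1 (-0.64) and the NRF2 marker Gclm (-0.71). The other NRF2 markers listed, Nqo1, Gclc, Srxn1 and Txnrd1, did not pass. RNA levels of these factors and markers do not measure the factors' activity.

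Of 19 genes listed as other conjugating enzymes, 10 fell, 3 rose and 6 did not pass, with a median of -0.34. Of all probe sets tested 10.9% were lower. The list also holds genes that do not conjugate: the epoxide hydrolase genes Ephx1 and Ephx2, and Papss2, which makes the sulphate donor. Ephx1 (log2 change -1.46) and Papss2 (-1.09) were among the 10 that fell. Sult1e1, the estrogen sulphotransferase, rose from 36.0 ± 5.29 to 1873 ± 571 (SD, n = 3 each; log2 change 5.14, limma adjusted p = 5.46e-05). The wild-type mean lay below the filter level of 38.4 intensity units, so the size depends on the pseudocount, and it was 4.23 with a pseudocount of 64. Sult2a8, a bile acid sulphotransferase, fell from 1620 ± 438 to 75 ± 88.3 (log2 change -4.56, limma adjusted p = 0.002), and its log2 change was -5.32 without knock-in mouse 3 and -3.74 with a pseudocount of 64. Nnmt, a nicotinamide methyltransferase, rose by 1.03 (limma adjusted p = 0.000568), and Sult1c2 fell by 1.92 (limma adjusted p = 0.000228). The third gene that rose was Sult1d1, a phenol and amine sulphotransferase, and it too was named after its values were seen.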

How the data were processed

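Total RNA from the livers of 3 knock-in and 3 wild-type mice was labelled with biotin and hybridised to 1-colour arrays, 1 per mouse. The deposited values were processed intensities on a linear scale, 1 per probe set and array, with a lowest value of 7 and array medians of 97.0 to 104. The authors' summarisation and normalization are not given in the sources used here, and scanner files were not used here. Probe sets were named from the platform annotation, and gene identifiers from RefSeq.

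Values were taken as log2(intensity + 16), a scale that understates folds at low signal. The filter removed probe sets with a mean log2 value under the 25th percentile of all, which left 26634. Genotypes were compared with limma 3.58.1 in R 4.3.3 (lmFit, eBayes with trend), with Benjamini-Hochberg adjustment over all tested probe sets; the code was tested on simulated data. A gene with several probe sets was represented by the brightest. The number of arrays limits the precision. Each p-value weighs the genotype difference against the spread between these mice, which limma draws toward a trend over all probe sets.

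The members, lists and tests were chosen with earlier results of these data known. Array values are given for members that passed with at least a 2-fold change, for the brightest of each class and for others that the results turn on. From each pathway list the 3 genes with the smallest p and those that passed with at least a 4-fold change are named. Other genes, cell type markers among them, were named after their values were seen. Alternatives covered the pseudocount, normalization, filter, eBayes settings, array weights, call threshold, the rule for several probe sets and each mouse left out. Motifs were searched in RefSeq windows of GRCm38.p6. Protein sequences were not used here. Figures were drawn with matplotlib 3.10.9.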

Additional observations from a re-analysis of the deposited data

How the results depend on the processing

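No called member turned direction under any of the 18 alternatives. Of 32 members, 19 stayed on the same side of the threshold in all that could be run, 8 lost their call in some and 5 gained one in some. Leaving out each mouse in turn gave 2422 to 4271 probe sets higher and 1814 to 3454 lower. It gave 0 to 1 GST genes higher (theta class 0 to 1), 8 to 14 GST genes lower and 3 to 9 UGT genes lower. By class the counts of lower genes ran from 0 to 1 (alpha), 0 to 1 (kappa), 0 to 1 (pi), 1 to 2 (microsomal) and 1 to 7 (Ugt2), and the class medians from -1.02 to -0.91 (mu) and -0.89 to -0.43 (pi). A further 1.5-fold threshold left 2077 probe sets higher and 1774 lower, with 0 alpha-class and 0 kappa-class genes lower. With no filter 0 GST genes (theta class) were higher, and 0 kappa-class and 0 pi-class genes lower; this setting adjusts over more probe sets. A pseudocount of 64 gave a mu-class median of -0.94. The filter at the 50th percentile removed 3 GST and 1 UGT genes and gave a theta-class median of -0.96. The microsomal count of lower genes was 2 under quantile normalization, centring on array medians, the 50th percentile filter, array weights or an adjusted p below 0.1, all through Mgst3. Centring each array on its median moved the share of higher calls over all probe sets from 57.7% to 47.7% (3119 higher, 3424 lower) and the median log2 change of all tested from 0.03 to -0.02. No paired analysis was possible because the knock-in and wild-type mice share no replicate number. With 3 mice a genotype, differences of the size of those of Gstm1 or Ugt2b36 lie at the limit of what passed. Mgst2, Gsto2, Gstt4 and Ugt8a lay near the filter, and the scale used understates folds at such signal. A decrease in them could thus be missed.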

Other observations

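Hepatocytes differ along the axis from the portal vein to the central vein, and lists of genes known for their zone were counted. Of 18 pericentral genes tested, 10 fell, 1 rose and 7 did not pass in knock-in liver, with a median log2 change of -0.72. The aldehyde dehydrogenase gene Aldh3a2 fell by 1.67, the Wnt feedback gene Rnf43 by 1.49 and the ammonium transporter gene Rhbg by 1.68 (limma adjusted p = 0.00127, 0.00135 and 0.00167). Rgn fell by 2.09 (limma adjusted p = 0.0121; 0.0517 without knock-in mouse 1). The gene that rose, Oat, did not pass without any 1 mouse other than knock-in mouse 3. Of 13 periportal genes 6 rose, 3 fell and 4 did not pass, with a median of 0.16. Etnppl rose by 2.15 and Hsd17b13 by 0.74, and Aldh1b1 fell by 1.52 (limma adjusted p = 0.000109, 0.00143 and 0.00107).

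Markers of the other liver cell types moved in both directions, and several counts rested on single mice. Over all probe sets tested 14.9% were higher and 10.9% lower. Of the endothelial markers 5 of 13 fell and 1 rose (median -0.33, summed intensity 8062 to 10415 in knock-in and 10139 to 10740 in wild-type livers). That count of 5 was 1 without knock-in mouse 1 or wild-type mouse 2, and the gene that rose, Lyve1, did not pass without knock-in mouse 5. Of the Kupffer cell markers 2 of 14 fell (Folr2 and Adgre1; median -0.40, sums of 4264 to 7578 against 6645 to 11584), with 1 lower without knock-in mouse 5 or wild-type mouse 4, 4 without wild-type mouse 6 and 5 without knock-in mouse 3. Of the stellate cell markers 2 of 13 rose and 2 fell (median -0.17, sums of 9425 to 11196 against 8680 to 9875), and 5 fell without knock-in mouse 3 and 1 without knock-in mouse 1 or 5 or wild-type mouse 2 or 6. Of the cholangiocyte markers 1 of 8 rose, Tm4sf4, by 1.26 (limma adjusted p = 0.000131), and none fell (median 0.08). Their sums were 6333 to 6786 in knock-in against 3014 to 3107 in wild-type livers. Tm4sf4 made up most of these sums, with means of 5989 against 2487, and the other markers were dimmer and did not pass. Neutrophil markers were dim, and 3 of 9 rose (median 0.21, sums of 690 to 701 against 516 to 578). Of 7 lymphocyte markers 1 fell and of 4 erythroid markers 1 fell (Alas2), which did not pass without wild-type mouse 2 or 6 (limma adjusted p = 0.0675 and 0.061).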
